A study of Mus musculus with 13 samples.

Results

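Of the 27071 genes in the deposited table, 10 are described here, all of them immediate early genes: Nr4a1, Nr4a2, Nr4a3, Fos, Fosb, Jun, Junb, Egr1, Ier2 and Klf6. They were chosen by name, with the values of Nr4a1 in the KHT and IPT libraries in view (low in KHT 1, KHT 2 and IPT 1), so their pattern over those 8 libraries is given as a description with no test. Immediate early genes are the first genes that a cell switches on after a signal. Transcription factors already present in the cell do this, so no new protein is needed, and most of the messenger RNAs are short-lived. In Leydig cells, the testis cells that make testosterone, luteinizing hormone acts through cyclic AMP and protein kinase A, and the orphan nuclear receptor Nr4a1 (Nur77) is among the genes best known to respond. Nr4a1 is also known there as an activator of steroidogenic promoters, and Fos and Jun proteins pair to form the factor AP-1.

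The RNA came from MA-10, a mouse Leydig tumour cell line grown in medium with horse serum, and no hormone, serum withdrawal or other treatment of the cells is named in the labels. The 4 KHT libraries hold RNA pulled down in vitro from total MA-10 RNA by a purified bait, the KH and Tudor domains of dAKAP1, a protein kinase A anchor of the outer mitochondrial membrane, through an antibody against its MBP tag. The NEG libraries hold what came down with control baits (bare beads, MBP or a KHT protein labelled GDDG, with no label saying which library had which), and the 4 IPT libraries hold the untreated input RNA, described as depleted of ribosomal RNA. So the bait never met living cells, and all 3 groups started from RNA of the same line. Samples were grouped by title: the description of the KHT samples speaks of a negative control, and their titles and treatment name KHT. Nothing says that the libraries of a group came from separate cultures, so p-values measure the spread between these libraries only. RNA was pooled over all cells of a preparation, so fewer expressing cells and less RNA per cell cannot be told apart.

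NEG 2 held no counts, which left 4 libraries per group. Total estimated counts ran from 1955446 to 3689792 in KHT, from 2487679 to 3085423 in IPT and from 1162178 to 1618998 in NEG. In NEG, 9 features held 96.0% to 98.1% of them, which left 31318 to 49062 counts for all other genes; the KHT and IPT libraries had 929348 to 2237374 there. Levels are given as normalised CPM: each count is divided by its library's total, brought to a common scale, after TMM scaling, a factor that lines up the bulk of genes between libraries. On that scale 1 count is worth at most 0.25 CPM in a KHT or IPT library and at least 4.09 CPM in a NEG library, so NEG levels rest on few counts. The Leydig markers were present in every KHT and IPT library: Star, which moves cholesterol into mitochondria, had 114 to 557 counts, and Nr5a1, the master factor of steroidogenic cells, had 700 to 2143. Of the markers of other testis cells found in the table, 8 of 14 had at most 4 counts in any of these libraries (the Sertoli genes Wt1, Amh and Fshr, the germ cell gene Sycp3, the leukocyte gene Ptprc, and Col1a1, Myh11 and Pdgfra of fibroblasts and peritubular cells). The other 6 had more: 6 to 27 counts for Sox9 and 6 to 21 for Dhh (Sertoli cells), 6 to 35 for Ddx4 (germ cells), 0 to 10 for Cd68 (macrophages), and 29 to 232 for Cdh5 and 23 to 50 for Pecam1 (endothelium). KHT 1, KHT 2 and IPT 1 stood apart from the other 5 libraries in genes of the amino acid stress response, with values given below.

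The DNA just upstream of the members' starts is shown first, as a description. Its part in their levels over the libraries was not tested. RefSeq promoter windows (GRCm38.p6) were found for 8 of the 10 members, and not for Egr1 and Ier2. The 250 bases before the start site were searched. Sites further upstream, and any sites of Egr1 and Ier2, were therefore not read, so a motif absent here may lie outside the windows. Capitals mark TGACG or its reverse complement CGTCA, the core of the cyclic AMP response element that CREB proteins bind. The windows of Nr4a1 and Nr4a2, which hold several cores, that of Fos, which holds 2, and that of Klf6, which holds none, are printed 5′ to 3′ on the strand of the gene. They lie at chr15:101266596-101266845 (+ strand, inside the annotated span of Nr4a1 and before the start site used by RefSeq), chr2:57124004-57124253 (- strand), chr12:85473640-85473889 (+ strand) and chr13:5861239-5861488 (+ strand).
Nr4a1: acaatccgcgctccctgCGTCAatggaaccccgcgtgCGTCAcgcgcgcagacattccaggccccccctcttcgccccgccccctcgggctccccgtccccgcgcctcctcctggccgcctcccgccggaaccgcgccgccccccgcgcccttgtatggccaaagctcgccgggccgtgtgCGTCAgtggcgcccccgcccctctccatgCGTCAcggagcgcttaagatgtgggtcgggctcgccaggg
Nr4a2: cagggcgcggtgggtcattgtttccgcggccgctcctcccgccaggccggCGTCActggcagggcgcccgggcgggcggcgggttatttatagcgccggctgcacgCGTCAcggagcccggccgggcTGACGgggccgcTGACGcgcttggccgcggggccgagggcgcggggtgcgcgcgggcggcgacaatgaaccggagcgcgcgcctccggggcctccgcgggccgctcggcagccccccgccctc
Fos: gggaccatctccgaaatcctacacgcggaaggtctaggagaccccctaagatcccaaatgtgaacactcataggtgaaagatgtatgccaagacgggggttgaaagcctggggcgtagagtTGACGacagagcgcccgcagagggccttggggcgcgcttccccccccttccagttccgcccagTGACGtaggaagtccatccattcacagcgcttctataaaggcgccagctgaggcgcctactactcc
Klf6: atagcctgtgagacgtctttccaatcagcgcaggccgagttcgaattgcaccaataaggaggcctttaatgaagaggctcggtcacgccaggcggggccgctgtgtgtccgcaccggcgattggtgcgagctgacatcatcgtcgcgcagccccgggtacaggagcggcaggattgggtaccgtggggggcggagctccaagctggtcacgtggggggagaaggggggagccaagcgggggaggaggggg
The core was present on either strand in 6 of the 8 member windows (4 times each in Nr4a1, Nr4a2 and Nr4a3, 2 times in Fos, 1 time each in Fosb and Junb) and in 17.8% of 32851 windows of that length. At least 3 cores were found in 3 of the 8 windows, those of the Nr4a genes, and in 0.688% of all windows. The full element TGACGTCA, which contains the core, was in none of the 8 and in 1.55% of all windows. The CArG box bound by serum response factor was in none of the 8 and in 1.47% of all, and the AP-1 site TGANTCA was in none of the 8 and in 6.75%. The site GCGNGGGCG, which Egr proteins bind, was in the windows of Fosb, Nr4a1 and Nr4a2 and in 4.70% of all, and AAAGGTCA, the site that a single Nr4a receptor binds, was in none of the 8 and in 1.34%. TATAAA was in the windows of Fos and Nr4a2 and in 12.4% of all. All motifs were read on both strands. A match is a stretch of letters, and binding was not measured.

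Nr4a1 (chromosome 15, 101253902 to 101274795) varied most among the members. Its estimated counts were 68, 30, 2219 and 774 in KHT 1 to 4, which is 8.93, 6.85, 251 and 192 normalised CPM. In IPT 1 to 4 they were 89, 442, 1626 and 1574, which is 9.48, 62.3, 242 and 165 CPM. So KHT 1, KHT 2 and IPT 1 were low, IPT 2 was intermediate, the other 4 libraries were high, and the ranges of the 2 groups overlapped almost wholly. The highest KHT library was 36.6 times the lowest (95% counting interval 25.6 to 54.4) and the highest IPT library 25.5 times the lowest (20.6 to 32.0). In NEG the gene had 0 counts in 3 libraries and 43 in NEG 5, where the library's scaling makes that 176 CPM.

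Nr4a3 (Nor1, chromosome 4, 48045078 to 48086447), the nearest relative of Nr4a1 in this small family, was low but ordered alike. It had 0, 0, 78 and 16 counts in KHT 1 to 4, or 0, 0, 8.81 and 3.97 CPM, and 0, 2, 49 and 22 counts in IPT 1 to 4, or 0, 0.28, 7.30 and 2.30 CPM. The 8 libraries fell in the same order for Nr4a3 as for Nr4a1 where Nr4a3 was above 0, and Nr4a3 had no counts in the libraries where Nr4a1 was lowest. Against a floor of 3 counts in KHT 1 and in IPT 1, its highest library was at least 22.4-fold higher in KHT and at least 22.8-fold higher in IPT. KHT 2 was also at 0. There 1 count is worth 0.228 CPM, against 0.131 CPM in KHT 1, so the bound against KHT 2 is lower. NEG 5 held 2 counts of it and the other NEG libraries 0. Nr4a2 (Nurr1, chromosome 2, 57106830 to 57124003), best known from dopamine neurons, was not detected above 3 counts in any library: KHT 3 and NEG 4 had 2 each, IPT 1 had 3 and the rest 0. So the window of Nr4a2 held as many cores as that of Nr4a1, and its RNA was at the floor in all 12 libraries.

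**Figure D1:**
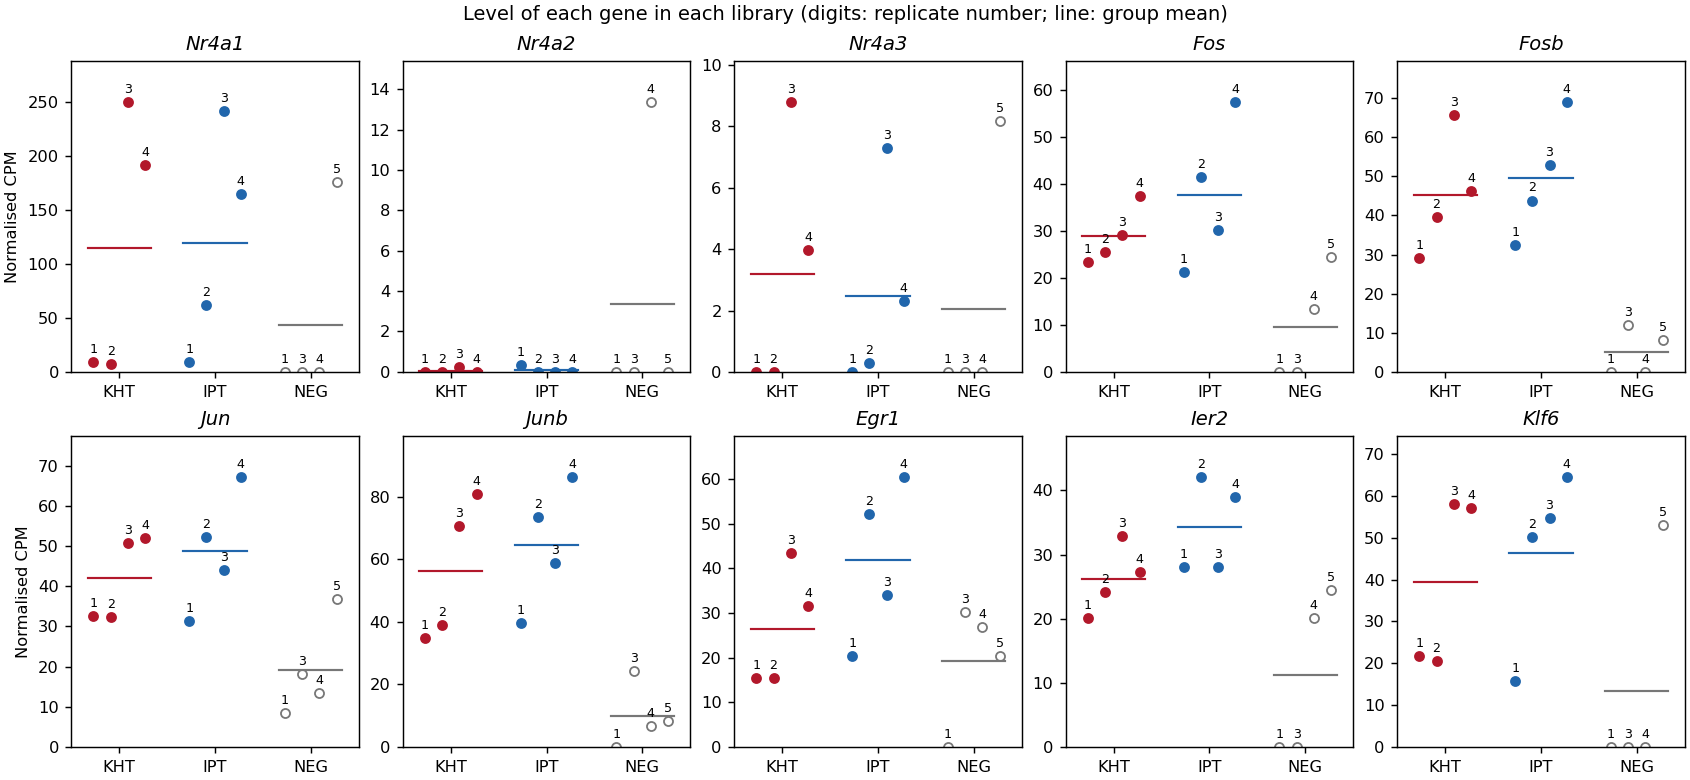
Normalised CPM of each of the 10 members (1 panel each, own vertical scale) in KHT 1 to 4, IPT 1 to 4 and NEG 1, 3, 4 and 5. Each point is 1 library, labelled with its replicate number, and each line is a group mean. Nr4a1 ran from 6.85 CPM in KHT 2 to 251 CPM in KHT 3, while Fos ran from 21.3 to 57.5 CPM over the KHT and IPT libraries.

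The AP-1 genes varied far less. Fos (chromosome 12, 85473890 to 85477274), the classic immediate early gene, had 178, 112, 257 and 151 counts in KHT 1 to 4 (23.4, 25.6, 29.0 and 37.5 CPM) and 200, 294, 203 and 550 in IPT 1 to 4 (21.3, 41.4, 30.2 and 57.5 CPM). IPT 4 was highest, and IPT 1, KHT 1 and KHT 2 were the 3 lowest. Fosb (chromosome 7, 19302696 to 19310118), its close relative, stood at 29.0, 39.5, 65.7 and 46.2 CPM in KHT and at 32.5, 43.8, 53.0 and 69.1 CPM in IPT. Jun (chromosome 4, 95049036 to 95052222), the main partner of Fos, stood at 32.6, 32.4, 50.8 and 51.9 CPM in KHT and at 31.2, 52.3, 44.1 and 67.2 CPM in IPT. Junb (chromosome 8, 84976909 to 84978748), a weaker activator that can restrain Jun, stood at 34.8, 39.0, 70.7 and 80.7 CPM in KHT and at 39.7, 73.6, 58.7 and 86.4 CPM in IPT. All 4 genes were highest in IPT 4 among the 8 libraries, all 4 had KHT 1, KHT 2 and IPT 1 at the bottom, and for all 4 the KHT and IPT ranges overlapped. In NEG 1, 3, 4 and 5 they had few counts: 0, 0, 2 and 6 for Fos, 0, 2, 0 and 2 for Fosb, 2, 3, 2 and 9 for Jun, and 0, 4, 1 and 2 for Junb.

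Egr1 (chromosome 18, 34861207 to 34864956), a zinc finger factor induced by serum and by hormones, had 117, 68, 384 and 127 counts in KHT 1 to 4 (15.4, 15.5, 43.4 and 31.5 CPM) and 192, 370, 229 and 579 in IPT 1 to 4 (20.5, 52.1, 34.1 and 60.5 CPM). Its highest libraries were IPT 4 and IPT 2, and its lowest KHT 1, KHT 2 and IPT 1. Klf6 (chromosome 13, 5861489 to 5870393), a Krüppel-like zinc finger factor, stood at 21.7, 20.5, 58.2 and 57.1 CPM in KHT and at 15.7, 50.3, 54.7 and 64.6 CPM in IPT. Of the 8 members above 5 CPM it had the widest contrast after Nr4a1, with 3 libraries at or below 21.7 CPM and 5 at or above 50.3. Ier2 (chromosome 8, 84661331 to 84662852), a small nuclear protein gene, was the flattest: 20.1, 24.2, 32.9 and 27.3 CPM in KHT and 28.0, 42.1, 28.0 and 39.0 CPM in IPT. Its lowest libraries were KHT 1, KHT 2 and KHT 4, and IPT 1 and IPT 3 were level. In NEG 1, 3, 4 and 5 the counts were 0, 5, 4 and 5 for Egr1, 0, 0, 0 and 13 for Klf6, and 0, 0, 3 and 6 for Ier2.

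The contrast between Nr4a1 and the other members did not depend on scaling, since it also appeared as a ratio of counts within each library. The counts of Nr4a1 divided by the summed counts of Fos, Fosb, Jun, Junb, Egr1, Ier2 and Klf6 gave 0.0505, 0.0348, 0.715 and 0.578 in KHT 1 to 4 and 0.0502, 0.175, 0.800 and 0.370 in IPT 1 to 4. The 95% counting interval was 0.0390 to 0.0644 in KHT 1 and 0.676 to 0.755 in KHT 3. IPT 2 lay between the low and the high libraries, at 0.158 to 0.194. In NEG 5 the ratio was 43 to 43, or 1 (0.640 to 1.56), and in NEG 1, 3 and 4 it was 0 to 2, 0 to 14 and 0 to 12. The upper 95% limits were 0.301 in NEG 3 and 0.360 in NEG 4, below the ratio of each of the 4 high libraries, and 5.32 in NEG 1, which therefore cannot be placed. The interval of IPT 4, the lowest of the high libraries, was 0.349 to 0.392 and reached below the limit of NEG 4. So NEG 4 was not clearly apart from IPT 4. NEG 5 stood with the high libraries by this ratio.

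**Figure D2:**
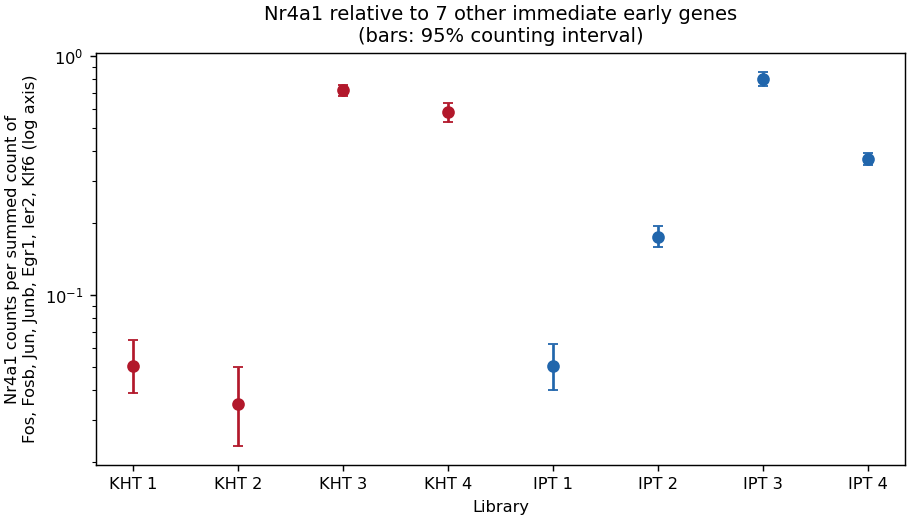
Counts of Nr4a1 per summed count of Fos, Fosb, Jun, Junb, Egr1, Ier2 and Klf6 in each KHT and IPT library, on a log axis, with 95% counting intervals. NEG libraries are not drawn. KHT 1, KHT 2 and IPT 1 sit at 0.0348 to 0.0505, IPT 2 at 0.175, and the other KHT and IPT libraries at 0.370 to 0.800.

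The spread of each member was set beside that of all 7803 genes that averaged at least 5 CPM over the KHT and IPT libraries. On the log2(CPM + 2) scale, the SD of Nr4a1 over 4 libraries was 2.60 in KHT, where 9 genes had a larger one, and 1.97 in IPT, where 7 did. The median gene had an SD of 0.26 in KHT and 0.23 in IPT. The other 7 members above 5 CPM had SDs of 0.28 to 0.79 in KHT and 0.29 to 0.87 in IPT. Nr4a1 was close to the top of the table by spread in both groups, and the other members lay well below it. Because the rule used the low values of Nr4a1 in KHT 1, KHT 2 and IPT 1, a wide spread followed from the choice. Its rank is a description only.

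**Figure D3:**
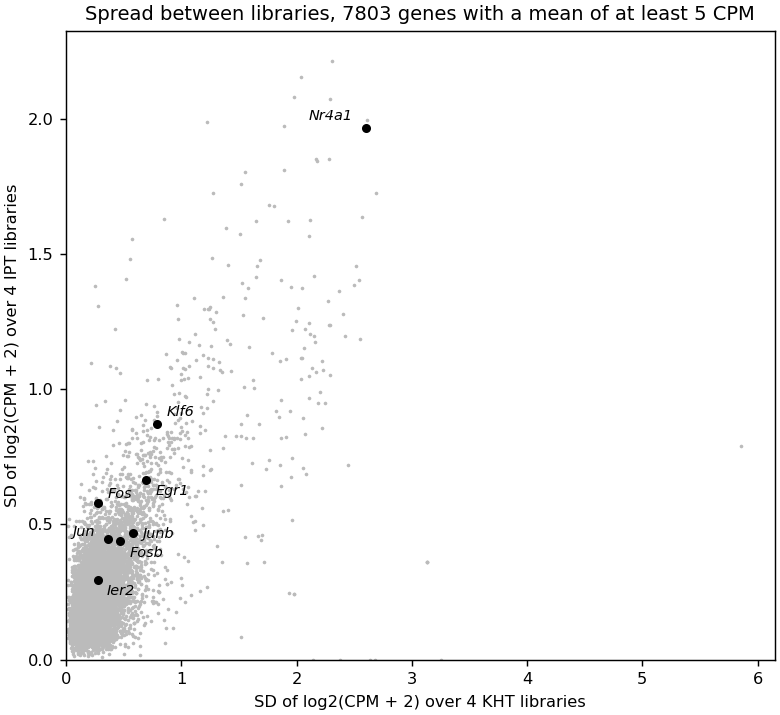
SD of log2(CPM + 2) over the 4 KHT libraries (horizontal) and over the 4 IPT libraries (vertical) for 7803 genes, 1 point each, with the 8 members above 5 CPM labelled. Nr4a1 lies at 2.60 and 1.97, far from the other members.

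For 7 of the 8 members above 5 CPM (Nr4a1, Fos, Fosb, Jun, Junb, Egr1 and Klf6), KHT 1, KHT 2 and IPT 1 were the 3 lowest of the 8 libraries. Among all 7803 genes the same held for 16.5%, and for 16.5% these libraries were the 3 highest. Since the rule used this pattern in Nr4a1, nothing is read from the member count. With total counts as library size it was 5 of the 8 (Fos and Fosb no longer) against 503 of the 7803 genes. Of a wider list of other immediate early genes, 50 were in the table and 30 had a mean of at least 5 CPM. In 15 of these 30 the 3 libraries were the lowest, and in 3 (Jund, Klf10 and Gadd45a) the highest. Btg2, a brake on cell division, stood at 3.02, 6.39, 21.5 and 26.3 CPM in KHT 1 to 4 and at 2.77, 18.7, 24.0 and 34.6 in IPT 1 to 4. Srf, which encodes serum response factor, stood at 5.64, 5.94, 22.8 and 29.1 CPM in KHT and at 5.96, 25.5, 19.7 and 18.5 in IPT. Gadd45a, a growth arrest gene that stress also switches on, ran the other way, with 79.7, 78.3, 6.44 and 11.4 CPM in KHT and 76.5, 8.88, 13.9 and 14.6 in IPT.

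The salt-inducible kinase gene Sik1, a cyclic AMP target that in turn holds back the CREB coactivators, differed from Nr4a1 in IPT 2. Sik1 stood at 1.44, 2.74, 22 and 13.9 CPM in KHT 1 to 4 and at 1.81, 1.69, 11.8 and 11.1 in IPT 1 to 4. So IPT 2 was low for Sik1 and Nr4a3 and intermediate for Nr4a1, while the same library was the second highest of the 8 for Fos, Jun and Egr1 and the highest for Ier2.

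The kinases, CREB and MEF2 factors and coactivators known to act upstream of these genes showed no such common direction. Of 21 above 5 CPM, 1 (Mef2d) was lowest and 5 (Creb1, Crtc3, Prkacb, Rps6ka3 and Rps6ka5) were highest in KHT 1, KHT 2 and IPT 1. Over all 7803 genes, 16.5% were lowest and 16.5% highest there. Of 5 genes for proteins that bind AU-rich elements, the decay signals in many early transcripts, 2 (Zfp36l1 and Khsrp) were lowest there.

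Values of other genes that moved with the low libraries were large. All 10 genes of an amino acid stress list were highest in KHT 1, KHT 2 and IPT 1, beside 16.5% of all 7803 genes. That list was chosen with earlier results of these data known, so nothing is read from the count. Trib3, a pseudokinase gene induced by Atf4, stood at 86.5, 72.4, 5.99 and 5.22 CPM in KHT 1 to 4 and at 77.3, 1.55, 5.66 and 2.09 in IPT 1 to 4. Asns, which makes asparagine, stood at 49.4, 42.5, 12.9 and 18.1 CPM in KHT and at 44.7, 6.48, 9.08 and 8.36 in IPT. Ddit3 (CHOP) stood at 58.2, 54.3, 9.37 and 13.2 CPM in KHT and at 64.0, 8.17, 10.3 and 10.6 in IPT, and Chac1, which breaks down glutathione, at 17.9, 20.8, 1.58 and 2.98 and at 19.1, 1.13, 2.68 and 0.84. Atf4, the factor that drives this response, stood at 192, 164, 95.3 and 110 CPM in KHT and at 182, 98.2, 102 and 95.2 in IPT. Unlike for Nr4a1, IPT 2 was not intermediate for these genes: it was as low as the other libraries. The share of counts in the 9 dominant features was 29.3%, 46.4%, 43.0% and 52.7% in KHT 1 to 4 and 28.9%, 36.8%, 38.0% and 26.7% in IPT 1 to 4. Low and high libraries for Nr4a1 overlapped in it. The part of the stress genes' state in the levels of the members was not tested.

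**Figure D4:**
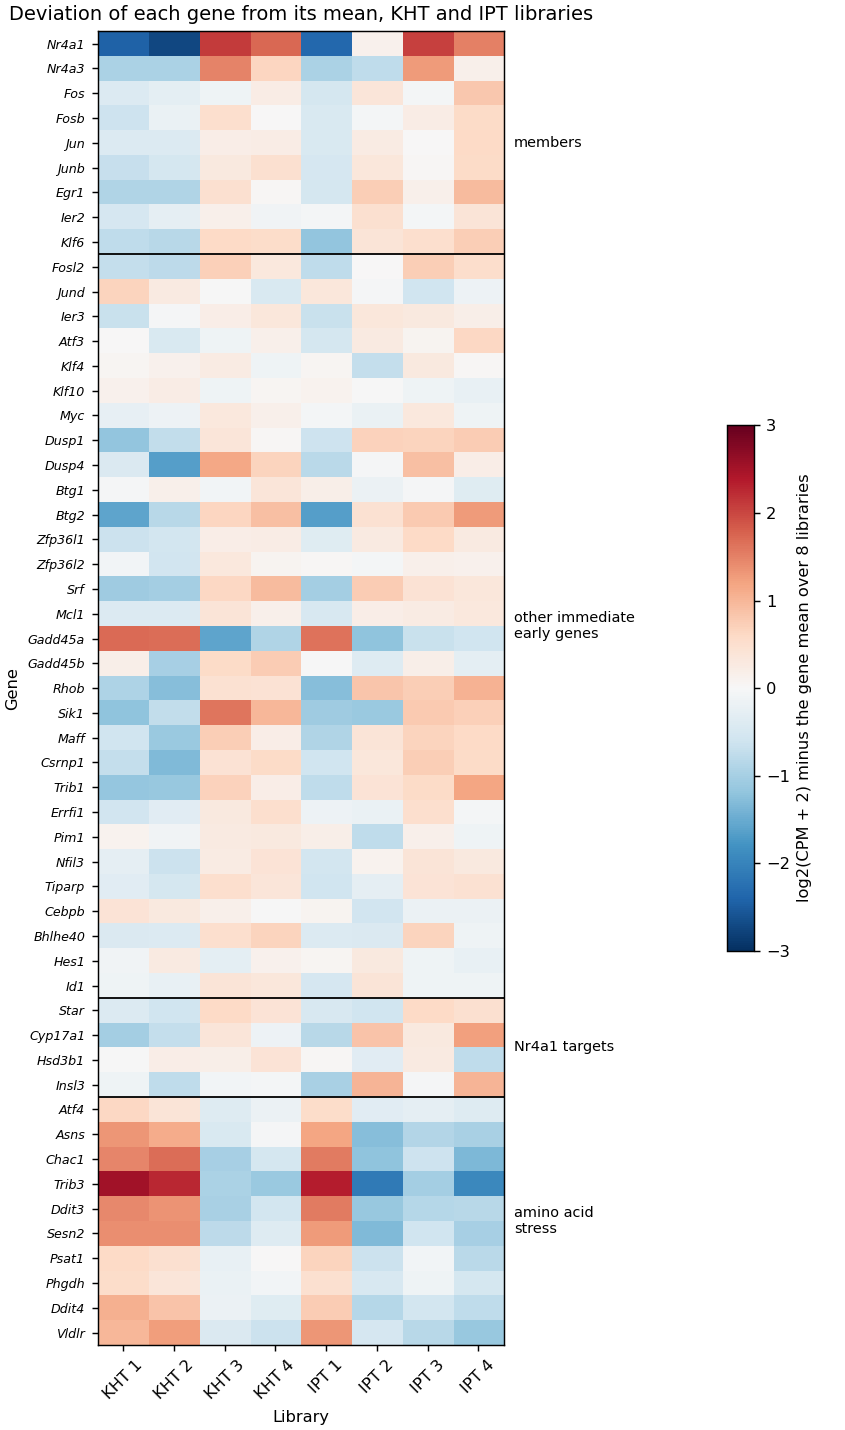
Each row is a gene and each column a KHT or IPT library; colour gives log2(CPM + 2) minus the gene's mean over the 8 libraries, for members, other immediate early genes, reported Nr4a1 targets and amino acid stress genes. Nr4a1 has the strongest colours among the members, low in KHT 1, KHT 2 and IPT 1, where the stress genes such as Trib3 are high.

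Genes with a course like that of Nr4a1 were ranked by the root mean square difference of centred log2(CPM + 2) over the 8 libraries, which share the 2 groups and their depths. Unnamed gene models and pseudogenes were skipped, so ranks and counts of closer genes cover the 7289 ranked genes only. A gene with the same level in every library would score 2.02, the median of the ranked genes was 2.03, and 0 would be an identical course. The 8 closest genes were Msc at 0.71, Thbs1 at 0.73, Plau at 0.81, Srxn1 at 0.94, Dusp10 at 1.05, Actg1 at 1.06, Prss23 at 1.06 and Btg2 at 1.08. Msc, a basic helix-loop-helix repressor gene, had 5, 8, 379 and 153 counts in KHT 1 to 4 and 13, 320, 214 and 459 in IPT 1 to 4. Thbs1, which encodes the matrix protein thrombospondin, had 0, 3, 152 and 68 in KHT and 2, 126, 128 and 239 in IPT. Plau, the urokinase gene, had 18, 15, 215 and 125 in KHT and 8, 67, 213 and 204 in IPT. Of the members, Klf6 came closest, at 1.35 and rank 42, then Egr1 at rank 121, Junb at 218, Fosb at 368, Jun at 473, Fos at 733 and Ier2 at 1369. Thus 41 ranked genes outside the member list lay closer to Nr4a1 than Klf6 did. At the far end were the stress genes, at ranks 6821 to 7288, with Trib3 last of them. With a pseudocount of 1 CPM 7 of the 8 closest genes were the same, and with 5 CPM 6 were.

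Reported targets of Nr4a1 in Leydig cells followed it in part. Star stood at 30.3, 26.0, 62.9 and 54.4 CPM in KHT 1 to 4 and at 28.3, 26.3, 62.4 and 57.7 in IPT 1 to 4, so it was low in 4 libraries, IPT 2 among them, and high in the other 4. Cyp17a1, the enzyme that turns progestins towards androgens, stood at 4.99, 6.62, 16.2 and 10.7 CPM in KHT and at 5.96, 23.5, 15.3 and 31.2 in IPT. Insl3, the Leydig peptide hormone, stood at 8.53, 4.79, 8.92 and 9.19 CPM in KHT and at 3.94, 21.6, 9.38 and 21.4 in IPT. Cyp17a1 and Insl3 had KHT 1, KHT 2 and IPT 1 at the bottom and were high in IPT 2 and IPT 4. For Insl3, KHT 1 at 8.53 CPM lay close to the 8.92, 9.19 and 9.38 CPM of other libraries. With total counts as library size, Cyp17a1 still had KHT 1, KHT 2 and IPT 1 lowest, and Insl3 did not. Hsd3b1, a steroid dehydrogenase gene, did not share the order, at 30.2, 35.2, 34.6 and 40.5 CPM in KHT and 30.9, 23.5, 36.8 and 17.1 in IPT. By likeness to Nr4a1, Star ranked 150, Cyp17a1 116, Insl3 535 and Hsd3b1 4221. Cyp11a1, which makes the first steroid from cholesterol, and its electron donor Fdx1 ranked 17 and 33.

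The group comparisons ask whether the bait held these messenger RNAs beyond the input and the control baits. They rest on the same libraries that the rule looked at. Nr4a2 did not pass the filter on low counts, so 9 members were tested among 10714 genes with edgeR's quasi-likelihood test, adjusted over all of them.

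Between KHT and IPT no member passed an adjusted p of 0.05 (edgeR), and none had an unadjusted p under 0.05. Neither DESeq2 nor limma voom called a member. Over all genes 0.00933% (1 gene) were called higher in KHT by edgeR, and 175 had an unadjusted p under 0.05. Nr4a1 averaged 115 ± 126 CPM in KHT and 120 ± 104 CPM in IPT (SD, n = 4 each), a log2 fold change of -0.06 with a standard error of 1.5. With that error, neither a gain nor a loss of several fold on the bait was detectable for Nr4a1. The estimates were tighter for the even members: -0.20 with a standard error of 0.49 for Junb, -0.22 with 0.41 for Jun, -0.14 with 0.43 for Fosb and -0.38 with 0.41 for Fos. Egr1 had the lowest value, -0.66 with a standard error of 0.46, then Ier2 at -0.39 with 0.38 and Klf6 at -0.23 with 0.64. Nr4a3, at 0.46 with a standard error of 1.38, was the only member with a positive value. The median over the 9 members was -0.22, against 0.01 over all genes tested. Without 1 library at a time the value of Nr4a1 ran from -0.79 to 0.54, so its sign was set by single libraries.

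Against NEG, 2 of the 9 members were higher in KHT and none lower (edgeR), while of all genes 33.7% were called, 31.0% higher and 2.72% lower. The mean level of Fosb was 45.1 ± 15.5 CPM over the 4 KHT libraries and 5.06 ± 6.05 CPM over the 4 NEG libraries (SD), a log2 fold change of 3.16 with a standard error of 0.74 (edgeR adjusted p = 0.0062). Junb had a log2 fold change of 2.63 with a standard error of 0.72 (edgeR adjusted p = 0.0119). Both passed in each alternative fit and without each single library. The values of the other members were positive and did not pass: Fos 1.53 with a standard error of 0.69 (edgeR adjusted p = 0.0825), Jun 1.08 with 0.54 (0.111), Ier2 1.21 with 0.64 (0.129), Klf6 1.35 with 0.88 (0.218), Egr1 0.55 with 0.66 (0.50), Nr4a1 1.30 with 1.62 (0.522) and Nr4a3 0.42 with 3.15 (0.925). The median over the members was 1.30 and over all genes 1.73. Every KHT library lay above every NEG library for 2 of the 9 members and for 45.8% of all genes.

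NEG 5 decided several of these values. Without it, NEG held no count of Nr4a1 or Klf6. Against the floor of 3 counts over those 3 libraries, Nr4a1 was then at least 22.8-fold higher in KHT and at least 20.9-fold higher in IPT, with edgeR adjusted p = 0.103 and 0.0992. KHT 1 and KHT 2, at 1.64 and 1.26 times that floor, and IPT 1, at 1.74 times, were close to it, and without KHT 3 the KHT bound was 9.99-fold. Klf6 was at least 7.38-fold higher in KHT and at least 8.34-fold higher in IPT (edgeR adjusted p = 0.0127 and 0.00924). Fos had a log2 fold change of 3.03 between KHT and NEG (edgeR adjusted p = 0.0133), Jun 1.77 (0.0119) and Ier2 2.30 (0.0228). So 6 of the 9 members were called higher in KHT without NEG 5, against 2 with it, and the share of all genes called higher was 47.2% without it, against 31.0% with it. In NEG with IPT 47.4% of all genes were called lower without it. For Nr4a3, the pooled level in KHT was 1.5 times that in NEG, with a counting interval of 0.405 to 12.6 on 2 NEG counts.

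Between NEG and IPT, which shares the NEG libraries with the previous comparison, 4 of the 9 members were lower in NEG and none higher (edgeR), beside 36.1% of all genes called, 32.5% lower and 3.64% higher. These were Fosb at -3.29 with a standard error of 0.74 (edgeR adjusted p = 0.00455), Junb at -2.83 with 0.72 (0.00783), Fos at -1.92 with 0.67 (0.0336) and Ier2 at -1.60 with 0.62 (0.0486). Jun, at -1.30 with 0.54 (edgeR adjusted p = 0.0605), Egr1 at -1.21 with 0.65 (0.135), Klf6 at -1.58 with 0.88 (0.151), Nr4a1 at -1.36 with 1.62 (0.501) and Nr4a3 at 0.04 with 3.24 (0.992) did not pass. The median was -1.58 over the members and -1.74 over all genes. The calls of Fosb and Junb held without each single library. That of Fos was lost without NEG 1, NEG 3, NEG 4, IPT 2 or IPT 4 (edgeR adjusted p of 0.0562 to 0.106), and that of Ier2 without any 1 of 10 of the 12 libraries (up to 0.144). Neither passed with the 2 groups fitted alone (edgeR adjusted p = 0.0562 and 0.0852), with counts outside the dominant features as library size (0.0618 and 0.0867) or with a filter at a mean of 10 CPM (0.0526 and 0.0837), nor did Ier2 in limma voom (0.0609). Every IPT library lay above every NEG library for 3 of the 9 members, against 47.1% of all genes.

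**Figure D5:**
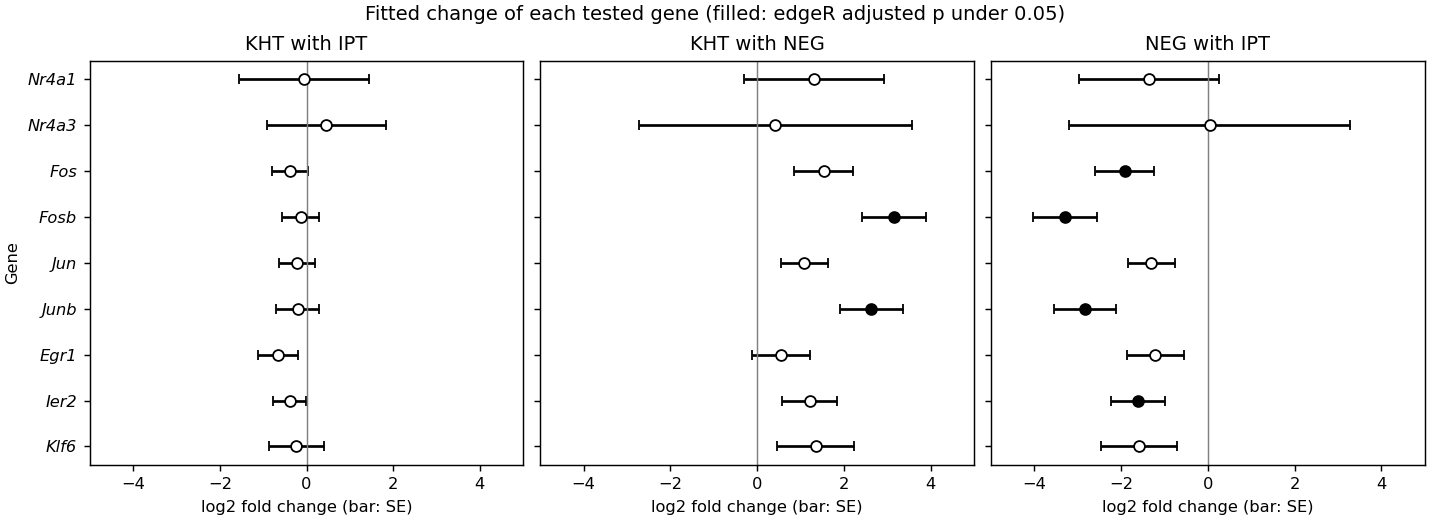
Log2 fold change of each of the 9 tested members, with its standard error, in the 3 comparisons; filled points passed an edgeR adjusted p of 0.05. Fosb and Junb are filled for KHT with NEG and for NEG with IPT, and no point is filled for KHT with IPT.

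Genes of related lists were counted in the same comparisons. Of 38 other immediate early genes tested, 5 were higher in KHT than in NEG (Jund, Ier3, Klf10, Bhlhe40 and Id1), beside 31.0% of all genes, and none lower. Their median log2 fold change was 1.48, against 1.73 over all genes. It was 0.78 with the 10 genes at 0 in NEG set to their bounds. Bounds are lower limits, some of them below no change (0.554-fold for Egr2), so 0.78 is a lower limit and not a second estimate. In NEG 7 of the 38 were lower than in IPT (Ier3, Klf10, Dusp1, Zfp36l2, Nfil3, Bhlhe40 and Id1), beside 32.5% of all genes. Of 22 upstream kinases and factors tested, 10 exceeded NEG in KHT, 9 were lower in NEG than in IPT, and none was called the other way. Of the 4 reported Nr4a1 targets, Star and Hsd3b1 were higher in KHT than in NEG, with log2 fold changes of 2.35 and 2.0 (edgeR adjusted p = 0.0294 and 0.0246). Elavl1 and Khsrp, of 6 genes for AU-rich element binding proteins, exceeded NEG in KHT. Between NEG and IPT, Elavl1, Khsrp and Zfp36l2 were lower in NEG, and Hnrnpd was higher, with a log2 fold change of 1.29 (edgeR adjusted p = 0.0414). None of the genes in these 4 lists was called between KHT and IPT by edgeR, and none had an unadjusted p under 0.05 there.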

How the data were processed

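The authors deposited estimated counts (expected counts) per gene for 13 libraries, and the values are whole numbers. The submitters' processing notes name kallisto and DESeq2 and the builds GRCm38 and mm10; versions, roles and strand settings are not given in the sources used here. Libraries were made with a stranded kit with ribosomal depletion, per the labels' protocols; the labels' molecule field says polyA RNA, and which holds was not settled. NEG 2, 0 throughout, was left out, so 12 libraries were fitted. In every library, values of 2 were more frequent than values of 1; if both mates of a read pair were counted, intervals and floors, which cover counting error only, are too narrow.

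From these counts, edgeR 4.0.16 (R 4.3.3; TMM, filterByExpr, robust quasi-likelihood test, two-sided) tested 10714 genes in 1 fit of 3 groups, with Benjamini-Hochberg adjustment and a threshold of 0.05. The standard error is the log2 fold change divided by the square root of F. The fit was tested on simulated data. Alternatives were DESeq2 1.42.0, limma 3.58.1 voom, other library sizes and filters, 2 groups alone, a replicate block and each library left out. Symbols matched 27004 of 27071 identifiers; Cyr61, Mkl1 and Mkl2 are Ccn1, Mrtfa and Mrtfb in newer naming.

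Ratios of a gene between libraries have exact binomial 95% intervals. A gene at 0 was given a floor of 3 counts. Dominant features held at least 0.5% of pooled NEG counts. The members and lists were chosen with earlier results of these data known. Genes ranked for likeness to Nr4a1 had a mean of at least 5 CPM, and unnamed models and pseudogenes were skipped. Named genes were the 10 members, the 8 ranked genes closest to Nr4a1, and 9 fixed target and stress genes. Up to 6 called and 6 closest genes of each list were also named. Genes named as lowest or highest in 3 libraries were chosen after their values were seen. Besides those described, marker lists gave, of the genes tested, 2 of 7 Leydig markers higher in KHT than in NEG, 0 of 2 Sertoli and 0 of 1 germ cell markers called, and 1 of 2 endothelial markers (Pecam1) lower. No macrophage or fibroblast marker passed the filter.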

Additional observations from a re-analysis of the deposited data

Results flagged for a closer look

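In 6 cases 1 library of a group stood far from the other 3, with a gap that exceeded Dixon's 95% critical value for 4 samples. Chance flags about 1 group in 20, and in all 6 the other 3 libraries had 0 counts, so any count at all gives the full gap. NEG 5 had 176 CPM of Nr4a1 (43 counts), 53.1 CPM of Klf6 (13 counts) and 8.17 CPM of Nr4a3 (2 counts). For Nr4a2, NEG 4 had 13.4 CPM (2 counts), KHT 3 had 0.23 CPM (2 counts) and IPT 1 had 0.32 CPM (3 counts). The count of Nr4a1 in NEG 5 is the one that is well above the floor of 3 counts, and Klf6 in the same library follows. The labels do not give the bait of NEG 5.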

How the results depend on the processing

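The 9 tested members were called in no alternative for KHT with IPT. Over all genes, that comparison had 1 call, and 7 with DESeq2, 9 with limma voom, 56 with no filter, 2 with the 2 groups alone, and 0 with total counts, counts outside the dominant features, or a filter at 10 CPM; leaving out 1 library gave 0 to 3 (3 without KHT 1, 2 without KHT 2 or KHT 4, and 0 without NEG 4, IPT 2, IPT 3 or IPT 4). For KHT with NEG, 3615 genes were called, against 10440 with total counts and 2371 with the 2 groups alone, and 1948 (without NEG 1) to 5875 (without NEG 5) without 1 library. Members higher were 2, against 5 with DESeq2, 8 with total counts and 7 with the replicate block, and 2 to 6 without 1 library (6 without NEG 5). Over all 10714 genes tested, 3324 were higher in the main fit, 3985 with DESeq2, 10426 with total counts and 5042 with the block. No other group has a library numbered 5, so the block gives NEG 5 a term of its own. It therefore sets NEG 5 aside much as leaving it out does, and is not a separate check. For NEG with IPT, 3872 genes were called, against 10473 with total counts, 2335 with the 2 groups alone and 2145 (without NEG 1) to 5950 (without NEG 5) without 1 library. Members lower were 4, against 8 with total counts, 2 with counts outside the dominant features, with a filter at a mean of 10 CPM and with the 2 groups alone, 7 with the block, and 2 to 6 without 1 library (2 without NEG 1, NEG 3, NEG 4, IPT 2 or IPT 4, and 6 without NEG 5). Of all 10714 genes tested, 3482 were lower in the main fit, 10423 with total counts and 5021 with the block. Lower were also 2440 of 10744 with counts outside the dominant features, 2389 of 7530 with the filter at 10 CPM and 2046 of 9355 with the 2 groups alone. Total counts moved the median of all genes from 1.73 to 5.66 (KHT with NEG) and from 0.01 to -0.24 (KHT with IPT). Genes with more RNA in KHT made up 92.0% of the calls against NEG, and 99.9% with total counts.

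Among the members' fold changes, none of those that changed sign was called. Nr4a3 was -2.35 with limma voom and -1.03 to 7.14 without 1 library for KHT with NEG. For NEG with IPT it was -0.074 with DESeq2, -4.02 with total counts, -0.27 with no filter, -6.83 with the block and -6.69 to 1.44 without 1 library. For KHT with IPT, values without 1 library were -0.79 to 0.54 for Nr4a1, -1.01 to 1.87 for Nr4a3 and -0.38 to 0.066 for Fosb. The cause was not tested.

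Deviations of same-numbered KHT and IPT libraries correlated at 0.278, -0.338, 0.240 and 0.153 across genes for numbers 1 to 4, and those of NEG with the others at -0.158 to 0.0857. Not every pair was above 0.1, and the labels give no shared source, so numbers were not treated as pairs. KHT 2 correlated best with IPT 1 (0.538). With the block 5400 genes were called for KHT with NEG, 5460 for NEG with IPT and 1 for KHT with IPT. Few NEG counts limit every value set against NEG.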
